A study of Mus musculus with 6 samples.

Results

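Glucose uptake, glycolysis, lactate handling and glycogen metabolism were described in the mouse heart through 33 listed genes, out of 36564 genes given a value. The 33 were chosen by name, as the transporters, enzymes and isozymes of these steps. No rule on level or difference picked them, but earlier results of these data were known when they were chosen. Of them, 32 passed the filter on low values (a mean FPKM of at least 1) and were tested, and Aldoc, the brain-type aldolase, did not. Messenger RNA had been sequenced from whole hearts of mice aged 32 weeks. The first group was labelled ApoE-/- Timp3-/-, for loss of apolipoprotein E and of tissue inhibitor of metalloproteinases 3, a protease inhibitor of the matrix, here called the double mutants, with libraries 4, 5 and 6. Its controls were ApoE-/- littermates, libraries 1, 2 and 3. Every animal was thus ApoE-/-, a genotype that gives mice high blood cholesterol, and no heart with normal ApoE was compared. The labels say no more than littermates about kinship, and all p-values are therefore about the spread among these 6 libraries alone.

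Glucose enters heart muscle cells through the transporters GLUT4, which insulin and contraction bring to the surface, and GLUT1, and is trapped by hexokinase. Phosphofructokinase commits it to glycolysis, which ends in pyruvate and, by lactate dehydrogenase, lactate; glycogen synthase and the branching enzyme store it as glycogen, which glycogen phosphorylase releases again. Most of these steps exist as isozymes from separate genes, one of them typical of muscle (Pfkm, Pygm, Eno3, Pgam2) and others typical of liver, brain or most tissues (Pfkl, Pygb, Eno1, Pgam1). The adult heart burns mainly fatty acids, and glucose takes a larger part in the fetal and the overloaded heart.

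Levels below are scaled FPKM, that is fragments per kilobase of transcript, corrected for the size of the library, summed over the transcripts of a gene and scaled between libraries, so that they can be compared between genes. Differences are double mutant minus ApoE-/- on log2(scaled FPKM + 1), with the standard error (SE), and p-values are from limma, adjusted over 11385 genes by the Benjamini-Hochberg method. By this test 0 of the 32 genes passed an adjusted p of 0.05, which 0.0527% of all genes tested passed, and the lowest adjusted p of a member was 0.31. Timp3 itself was at 26.9 ± 6.02 in double mutants and 40.4 ± 2.84 in ApoE-/- hearts (SD, n = 3 each), lower without overlap but not lost (log2 difference -0.59, adjusted p = 0.30 by limma). How much of Timp3 the mutant allele deletes was not stated in the labels, so the remaining messenger RNA could not check the genotypes, which are those of the labels. Depth, as coverage times length, was 683 to 910 aligned megabases in the double mutants and 654 to 1339 in ApoE-/- hearts.

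At an unadjusted p under 0.05, 3 of the 32 genes differed, 9.38% against 12.0% of all genes tested. The higher ones in double mutants were Pygb, brain-type glycogen phosphorylase, and Slc16a1, the lactate and pyruvate carrier MCT1, 2 members where 7.23% of all genes were higher. The lower one was Pfkl, liver-type phosphofructokinase, where 4.73% of all genes were lower. The groups did not overlap in 5 of the 32 genes, 15.6% against 18.5% of all genes. These were Pygb and Slc16a1 above (10.2% of all genes) and Pfkl, Gyg and Gbe1 below (8.30% of all genes). The shares of members that differed were therefore near or under the background. Across the 32 genes 18 differences lay above 0 and 14 below, with a median of 0.03 against 0.0042 over all genes, and a median size of 0.17 against 0.16. The median of the members was -0.05 without further scaling, where that of all genes was -0.07, and -0.09 under quantile normalization, where that of all genes was -0.01.

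**Figure D1:**
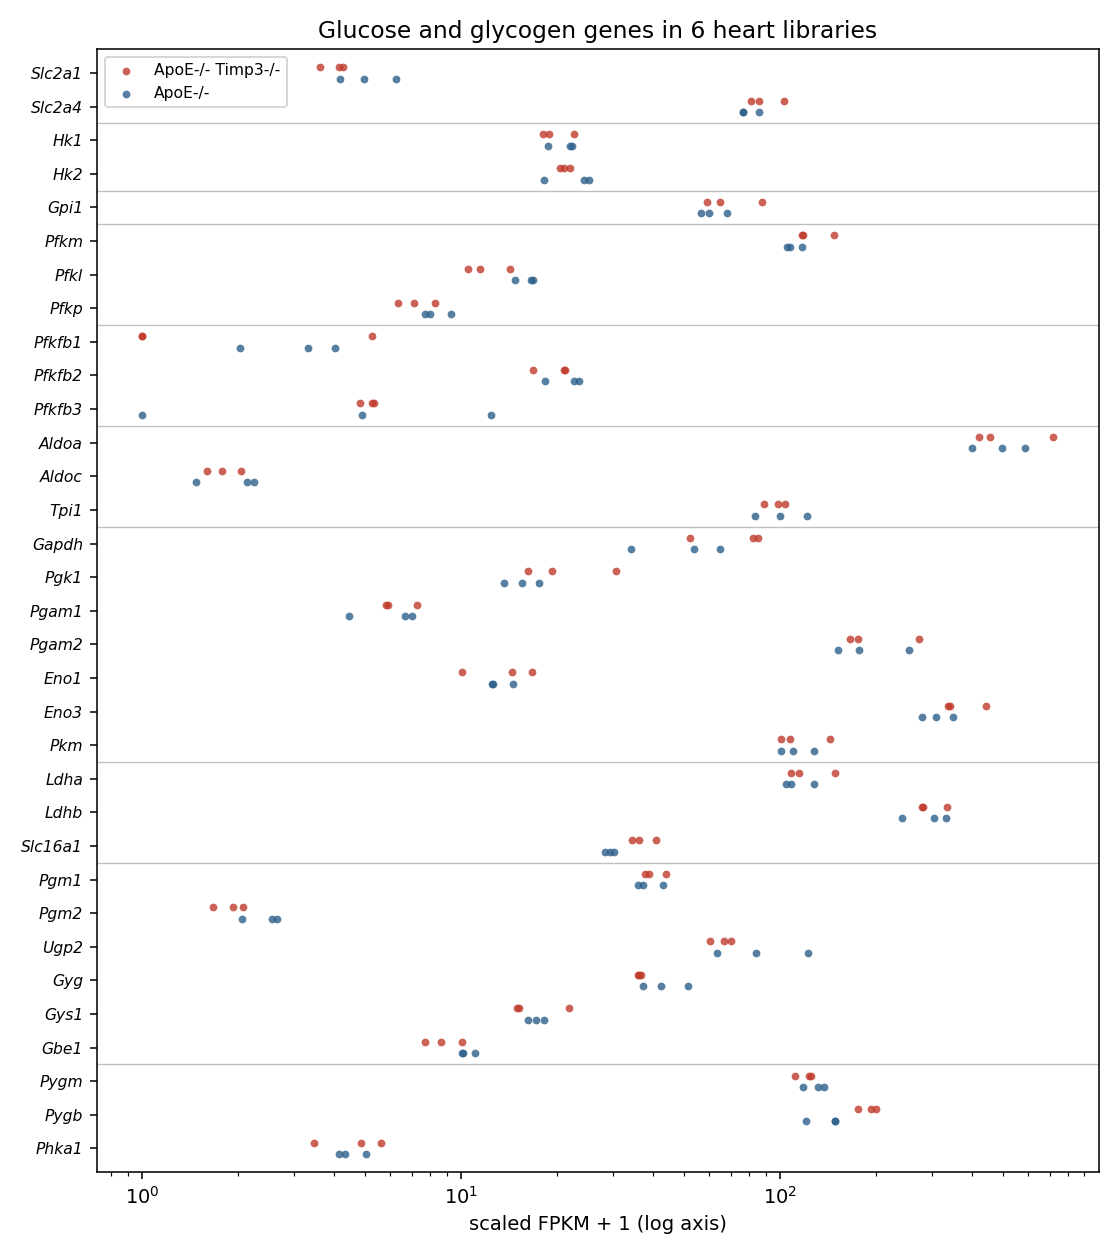
Scaled FPKM + 1 (log axis) of the 33 genes in each library, red points for ApoE-/- Timp3-/- and blue for ApoE-/-, ordered by step of the pathway, with lines between steps. The spread between genes, from under 1 for Aldoc to 719 for Aldoa, is far wider than that between genotypes.

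Pyruvate kinase shows which splice form of a member these hearts used, and its sequence shows how the forms can be told apart. Pkm (ENSMUSG00000032294, chromosome 9, 59504383 to 59527182, build NCBIM37, plus strand) carries a pair of mutually exclusive exons. The upstream one makes the M1 form, typical of adult muscle and heart, and the downstream one the M2 form, typical of embryonic and dividing cells. The exons lie at chr9:59522836-59523002 and chr9:59523375-59523541 in that build, each is exon 9 of 11 in its transcript, and each is 167 nt long. They are shown 5′ to 3′ as RNA-sense DNA letters from the GENCODE transcripts of GRCm38, with the bases that differ between them in capitals.
Pkm M1 exon: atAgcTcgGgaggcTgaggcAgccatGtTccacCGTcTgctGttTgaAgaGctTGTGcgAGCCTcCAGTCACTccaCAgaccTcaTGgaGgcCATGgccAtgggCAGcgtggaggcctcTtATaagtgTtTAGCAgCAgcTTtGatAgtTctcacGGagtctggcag
Pkm M2 exon: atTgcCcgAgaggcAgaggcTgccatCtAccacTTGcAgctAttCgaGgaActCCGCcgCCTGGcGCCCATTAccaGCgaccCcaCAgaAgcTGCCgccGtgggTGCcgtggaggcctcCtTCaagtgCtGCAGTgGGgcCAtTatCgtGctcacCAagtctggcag
Of the 167 bases 103 are identical (61.7%) and 64 differ, spread along the exon. All 118 stretches of 50 bases in the M1 exon were absent from transcripts of other genes, whereas 26 of the 118 in the M2 exon (22.0%) occurred in 2 other genes.

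In these files the whole Pkm value stood on the transcript with the M1 exon (ENSMUST00000163694). Its deposited FPKM was 143.4, 95.1 and 100.6 in libraries 4, 5 and 6 of the double mutants, and 119.1, 126.1 and 99.96 in libraries 1, 2 and 3 of ApoE-/- hearts. The transcript with the M2 exon (ENSMUST00000034834) was listed at 0 in every library, and no assembled transcript held either exon. A listed 0 in a file without counts can be a failed estimate, so M2 messenger RNA is not shown to be absent. Scaled, Pkm averaged 116 ± 22.8 in double mutants and 112 ± 13.7 in ApoE-/- hearts, and the groups overlapped (log2 difference 0.04, 95% interval -0.37 to 0.46, adjusted p = 0.95 by limma).

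Glucose uptake and phosphorylation came next. Slc2a4, the gene of GLUT4 (chromosome 11, 69756045 to 69761690), was at 101.5, 84.6 and 80.2 in double mutants and at 75.3, 75.6 and 85.1 in ApoE-/- hearts. Slc2a1, the gene of GLUT1 (chromosome 4, 118781316 to 118809935), was at 3.13, 2.62 and 3.26 in double mutants and at 3.18, 5.24 and 3.94 in ApoE-/- hearts. GLUT4 messenger RNA, a level per length, was thus the far more abundant transporter in every library, and for either gene the groups overlapped in scaled FPKM. In deposited FPKM Slc2a1 was lower in double mutants without overlap. It was at 3.16, 2.34 and 3.29 there and at 3.81, 5.23 and 3.62 in ApoE-/- hearts. The log2 differences of the transporters pointed in opposite directions, 0.17 ± 0.14 for Slc2a4 and -0.34 ± 0.17 for Slc2a1 (SE; adjusted p = 0.69 and 0.50 by limma). Slc2a4 was at 0.07 without library 4 and 0.0019 under quantile normalization, and Slc2a1 at -0.19 without library 2. Hexokinases 1 and 2 stood at nearly the same summed level as each other. Hk1, bound to mitochondria in most tissues, averaged 18.8 ± 2.44 in double mutants and 20.0 ± 2.00 in ApoE-/- hearts, and Hk2, the insulin-responsive form, 20.1 ± 0.781 and 21.5 ± 3.78. Neither hexokinase differed beyond the replicate spread (log2 differences -0.09 and -0.08). An assembled piece held 14.75% to 42.98% of the Hk2 value in each library, and the Hk1 value held no such piece. On reference transcripts only, the deposited FPKM was 12.67 to 20.14 for Hk2 and 15.25 to 21.81 for Hk1.

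Phosphofructokinase, the committing step, was the one step of glycolysis with a gene at an unadjusted p under 0.05. Pfkl (ENSMUSG00000020277, chromosome 10, 77449692 to 77472828) was at 13.2, 9.48 and 10.5 in double mutants and at 13.75, 15.5 and 15.8 in ApoE-/- hearts. All 3 double mutants lay below all ApoE-/- hearts, though library 4 did so only narrowly. Its mean of 11.0 ± 1.93 in double mutants against 15.0 ± 1.11 in ApoE-/- hearts gave a log2 difference of -0.42 ± 0.15 (SE; 95% interval -0.77 to -0.08). This did not pass the test over all genes (unadjusted p = 0.023, adjusted p = 0.34 by limma). Pfkm, the muscle subunit (chromosome 15, 97923020 to 97962878), was at 146.1, 117.1 and 116.3 in double mutants and at 104.0, 106.7 and 116.4 in ApoE-/- hearts. It was the main subunit gene in every library, and the groups met at library 6 and library 3. Pfkp, the platelet subunit, averaged 6.23 ± 0.964 in double mutants and 7.31 ± 0.829 in ApoE-/- hearts, with overlap, and shares 372 exonic bases with Pitrm1 on the other strand. Pfkm and Pfkp had log2 differences of 0.21 and -0.20 (adjusted p = 0.63 each by limma). Pfkm was at 0.10 without library 4 and 0.010 under quantile normalization, and Pfkp at -0.11 without library 5 and -0.12 without library 2. The bounds that Cufflinks gave for the main Pfkm transcript ran from 0 to 171.4 in library 4 and from 0 to 124.5 in library 5, against 67.9 to 73.7 in library 6 and 67.75 to 80.7 in ApoE-/- hearts.

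The bifunctional enzymes that set fructose 2,6-bisphosphate, the activator of phosphofructokinase, were led by the heart form. Pfkfb2 averaged 18.7 ± 2.52 in double mutants and 20.4 ± 2.73 in ApoE-/- hearts, with overlap (log2 difference -0.12). The other two forms were low and uneven, and single libraries were listed at 0. Pfkfb1, the liver and muscle form, had a deposited FPKM of 0, 3.81 and 0 in double mutants and of 3.61, 1.02 and 2.13 in ApoE-/- hearts. Pfkfb3, the inducible form, had 3.84, 3.88 and 4.31 in double mutants and 13.6, 0 and 3.59 in ApoE-/- hearts. Neither pattern separated the genotypes, and the 95% intervals of both differences ran more than 1 log2 unit to either side of their value.

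Through the rest of glycolysis no gene separated the genotypes. In the upper part, Aldoa, the muscle-type aldolase, had the highest scaled FPKM of the members, at 531 ± 163 in double mutants and 494 ± 92.8 in ApoE-/- hearts. The value of Gapdh rested on short pieces, as given below, so its rank beside Aldoa could not be told. Gpi1, glucose-6-phosphate isomerase, averaged 69.4 ± 15.4 in double mutants and 60.4 ± 5.96 in ApoE-/- hearts, and Tpi1, triosephosphate isomerase, 96.0 ± 7.42 and 100.6 ± 19.0. Aldoc, which was not tested, stood at 0.802 ± 0.225 in double mutants and 0.949 ± 0.411 in ApoE-/- hearts. In the lower part, from Gapdh to pyruvate kinase, 7 of 7 genes had a log2 difference above 0, with a median of 0.08, but Pgam2, Eno1 and Pkm turned below 0 under quantile normalization and, together with the median of all genes (-0.07), without further scaling. Eno3, the muscle enolase, averaged 373 ± 59.5 in double mutants and 311 ± 35.9 in ApoE-/- hearts (log2 difference 0.26 ± 0.17 SE, adjusted p = 0.61 by limma), and the difference was 0.13 without library 4. Pgam2, the muscle phosphoglycerate mutase, averaged 203 ± 59.2 in double mutants and 193 ± 53.1 in ApoE-/- hearts. The non-muscle forms were low beside them, with Eno1 at 12.7 ± 3.33 in double mutants and 12.2 ± 1.15 in ApoE-/- hearts, and Pgam1 at 5.32 ± 0.813 and 5.04 ± 1.38. Of the 50-base stretches of Eno1 72.2% and of Pgam1 41.5% recur in other genes, against 0.0% for Eno3 and Pgam2. In libraries 2, 4 and 6 the Eno1 value came from an assembled transcript alone. The effect of either on these low levels was not tested.

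The 2 largest differences of the lower part belonged to Gapdh and Pgk1, and pieces of transcripts entered both values. Gapdh, glyceraldehyde-3-phosphate dehydrogenase and a common reference gene, was at 84.3, 51.2 and 81.4 in double mutants and at 33.15, 52.9 and 63.6 in ApoE-/- hearts. The groups overlapped, and the log2 difference of 0.54 ± 0.29 (SE) did not pass (adjusted p = 0.52 by limma). It was 0.28 without library 1 and -1.71 with reference transcripts only. In libraries 5, 1 and 2 the value came from a reference transcript of 565 nt, and in libraries 4, 6 and 3 from assembled pieces of 362, 312 and 360 nt. The full-length transcript was listed at 0 in every library, and 82.5% of its stretches of 50 bases recur in 218 other genes or pseudogenes. Pgk1, phosphoglycerate kinase, was at 18.3, 29.6 and 15.2 in double mutants and at 12.6, 16.6 and 14.5 in ApoE-/- hearts. Library 5 alone stood high there, with an assembled piece at a deposited FPKM of 13.4, and the groups overlapped (log2 difference 0.46, adjusted p = 0.53 by limma). The difference was 0.19 without library 5 and 0.12 with reference transcripts only. In 9 of the 33 genes more than 10% of such stretches recur elsewhere, among them Eno1 (72.2%), Pgk1 (68.0%) and Pgam1 (41.5%), and in 23 fewer than 1% do.

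On the lactate side, Slc16a1 was the gene that separated the groups. The gene of MCT1 (ENSMUSG00000032902, chromosome 3, 104442591 to 104462385), which carries lactate and pyruvate with protons across the membrane, was at 35.0, 39.7 and 33.4 in double mutants and at 27.25, 28.3 and 29.1 in ApoE-/- hearts. Every double mutant lay above every ApoE-/- heart, in the deposited FPKM as well, where the double mutants had 35.4, 35.6 and 33.7 and the ApoE-/- hearts 32.6, 28.2 and 26.8. The means were 36.0 ± 3.31 in double mutants and 28.2 ± 0.948 in ApoE-/- hearts, a log2 difference of 0.34 ± 0.12 (SE; 95% interval 0.05 to 0.62). It did not pass the test over all genes (unadjusted p = 0.026, adjusted p = 0.36 by limma). The difference was 0.25 without further scaling (unadjusted p = 0.13 by limma) and 0.21 under quantile normalization (unadjusted p = 0.12 by limma). The single reference transcript of 4426 nt carried the whole value, and none of its 50-base stretches recurs in another gene. Ldhb, the heart subunit of lactate dehydrogenase, averaged 297 ± 31.6 in double mutants and 291 ± 46.1 in ApoE-/- hearts, and Ldha, the muscle subunit, 123 ± 21.5 and 113 ± 12.6. Their log2 differences were 0.04 and 0.12 with overlap between the groups, and both turned below 0 under quantile normalization, Ldhb also without further scaling. Short transcripts of 685 and 867 nt entered the Ldhb value, as given below.

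**Figure D2:**
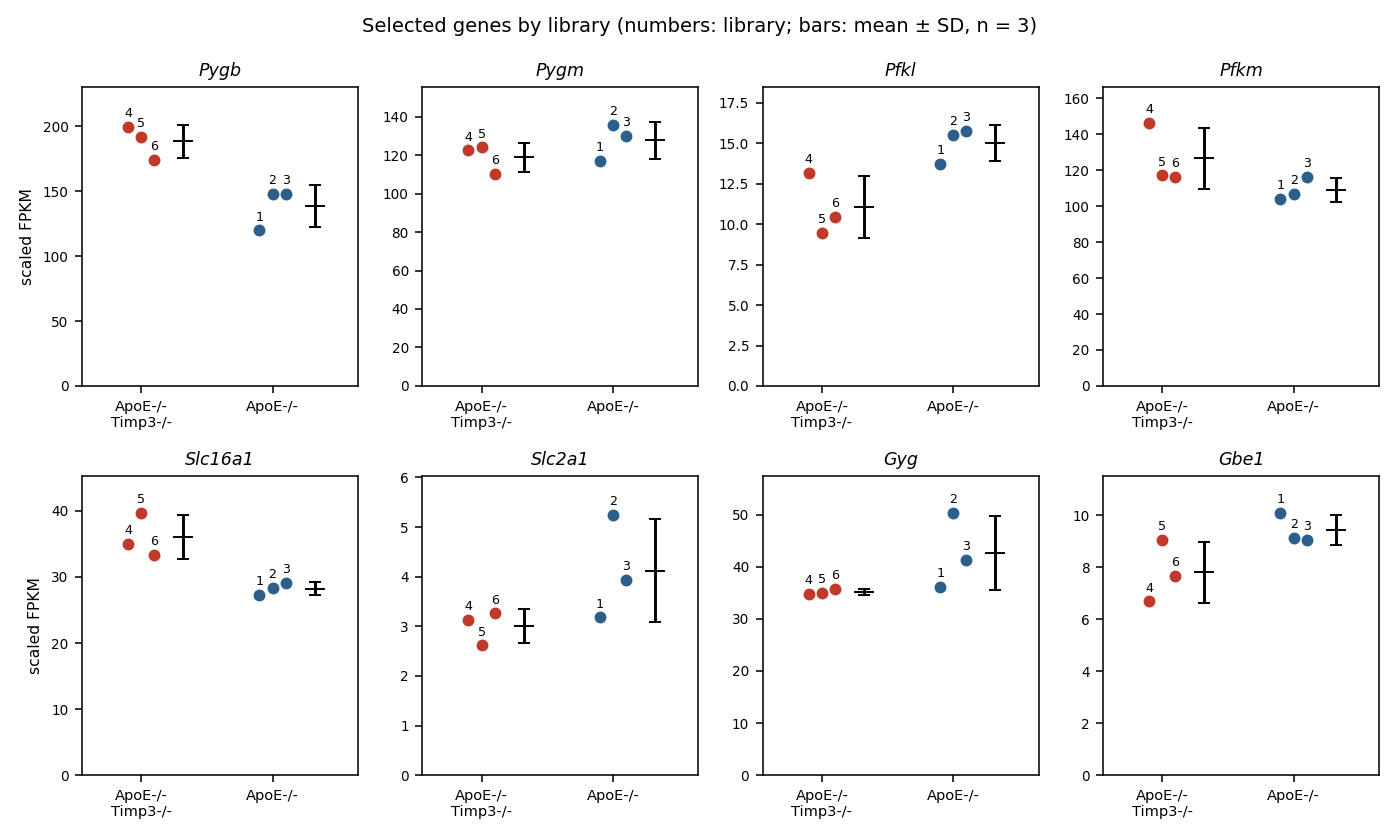
Scaled FPKM per library (points, numbered by library) with mean ± SD (bars, n = 3) for 8 genes, ApoE-/- Timp3-/- on the left of each panel. Pygb and Slc16a1 lie higher and Pfkl, Gyg and Gbe1 lower in double mutants without overlap, while Pygm, Pfkm and Slc2a1 overlap.

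Glycogen breakdown held the member with the smallest p. Pygb (ENSMUSG00000033059, chromosome 2, 150612471 to 150657494), the brain-type phosphorylase that the heart also expresses, was at 199, 192 and 174 in double mutants and at 119.7, 148 and 148 in ApoE-/- hearts. Every double mutant lay above every ApoE-/- heart. The means of 188 ± 12.8 in double mutants and 138 ± 16.2 in ApoE-/- hearts gave a log2 difference of 0.45 ± 0.14 (SE; 95% interval 0.11 to 0.79). The test over all genes was not passed (unadjusted p = 0.017, adjusted p = 0.31 by limma), and the difference was 0.23 under quantile normalization. Pygm, the muscle phosphorylase (chromosome 19, 6384399 to 6398459), was at 122.5, 124.0 and 110.2 in double mutants and at 116.9, 135.8 and 130.0 in ApoE-/- hearts. Its groups overlapped, with a log2 difference of -0.10 ± 0.13 (SE, adjusted p = 0.81 by limma). The difference of Pygm was -0.31 under quantile normalization (unadjusted p = 0.018 by limma) and 0.12 with the strongest transcript alone. Phka1, the muscle form of the regulatory alpha subunit of phosphorylase kinase, which switches phosphorylase on, was low at 3.63 ± 1.09 in double mutants and 3.50 ± 0.459 in ApoE-/- hearts.

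The pair of phosphorylases shares only short identical stretches. Their longest identical run, read from the GENCODE transcripts of GRCm38, is 62 nt, at bases 945 to 1006 of ENSMUST00000035269 (Pygm) and 998 to 1059 of ENSMUST00000045441 (Pygb). It is shown in lower case throughout because no base of it differs.
Pygm and Pygb shared run: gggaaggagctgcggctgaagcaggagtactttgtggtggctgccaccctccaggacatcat
The other isozyme pairs shared runs of 17 to 28 nt at most. Of the 50-base stretches of Pygm 0.5% and of Pygb 0.3% occur in another gene. Read length was not known, so how many reads could fit both genes was not settled. The reference transcript of Pygb by itself had a deposited FPKM of 201, 172 and 176 in double mutants and of 143, 147 and 136 in ApoE-/- hearts, again without overlap (log2 difference 0.42, adjusted p = 0.51 over 12707 transcripts by limma). The bounds that Cufflinks gave for it lay between 168.6 and 204.5 in double mutants and between 133.3 and 149.4 in ApoE-/- hearts.

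Of the genes of glycogen synthesis 5 of 6 had a difference below 0, as had 5625 of 11385 genes tested (6 of 6 without further scaling or under quantile normalization). The median was -0.25, and none of the 6 had an unadjusted p under 0.05 in the main fit. Under quantile normalization Gyg (-0.39) and Ugp2 (-0.56) did (unadjusted p = 0.011 and 0.016 by limma). Without library 1 Gyg (-0.37) and Ugp2 (-0.63) did as well (unadjusted p = 0.038 and 0.018 by limma). Gys1, the muscle glycogen synthase, had a difference of -0.01 and turned above 0 when only reference transcripts were summed, the other five keeping their signs there. Gyg, glycogenin, the protein that primes a glycogen particle, was at 34.75, 35.0 and 35.7 in double mutants and at 36.2, 50.4 and 41.3 in ApoE-/- hearts. Gbe1, the branching enzyme, was at 6.69, 9.040 and 7.65 in double mutants and at 10.1, 9.118 and 9.050 in ApoE-/- hearts. Both genes were lower without overlap, but the closest libraries almost touched, and their log2 differences of -0.26 and -0.25 had adjusted p = 0.57 and 0.53 by limma. The difference of Gyg was -0.13 without library 2, and that of Gbe1 -0.16 without library 4. Ugp2, which makes UDP-glucose, was at 69.4, 59.1 and 65.8 in double mutants and at 62.4, 121 and 82.9 in ApoE-/- hearts. Library 2 was the highest there, and library 3 also lay above every double mutant, while library 1 did not. The log2 difference of Ugp2 was -0.40 with all libraries and -0.15 without library 2. The phosphoglucomutases interconvert glucose 1-phosphate and glucose 6-phosphate, and since their symbols have been exchanged between annotation releases they are given with their IDs. ENSMUSG00000025791 on chromosome 4, here Pgm1, averaged 39.0 ± 3.29 in double mutants and 37.6 ± 3.70 in ApoE-/- hearts. ENSMUSG00000029171 on chromosome 5, here Pgm2, was scarce, at 0.892 ± 0.205 in double mutants and 1.41 ± 0.318 in ApoE-/- hearts, and the groups overlapped narrowly (log2 difference -0.35, unadjusted p = 0.073, adjusted p = 0.48 by limma).

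**Figure D3:**
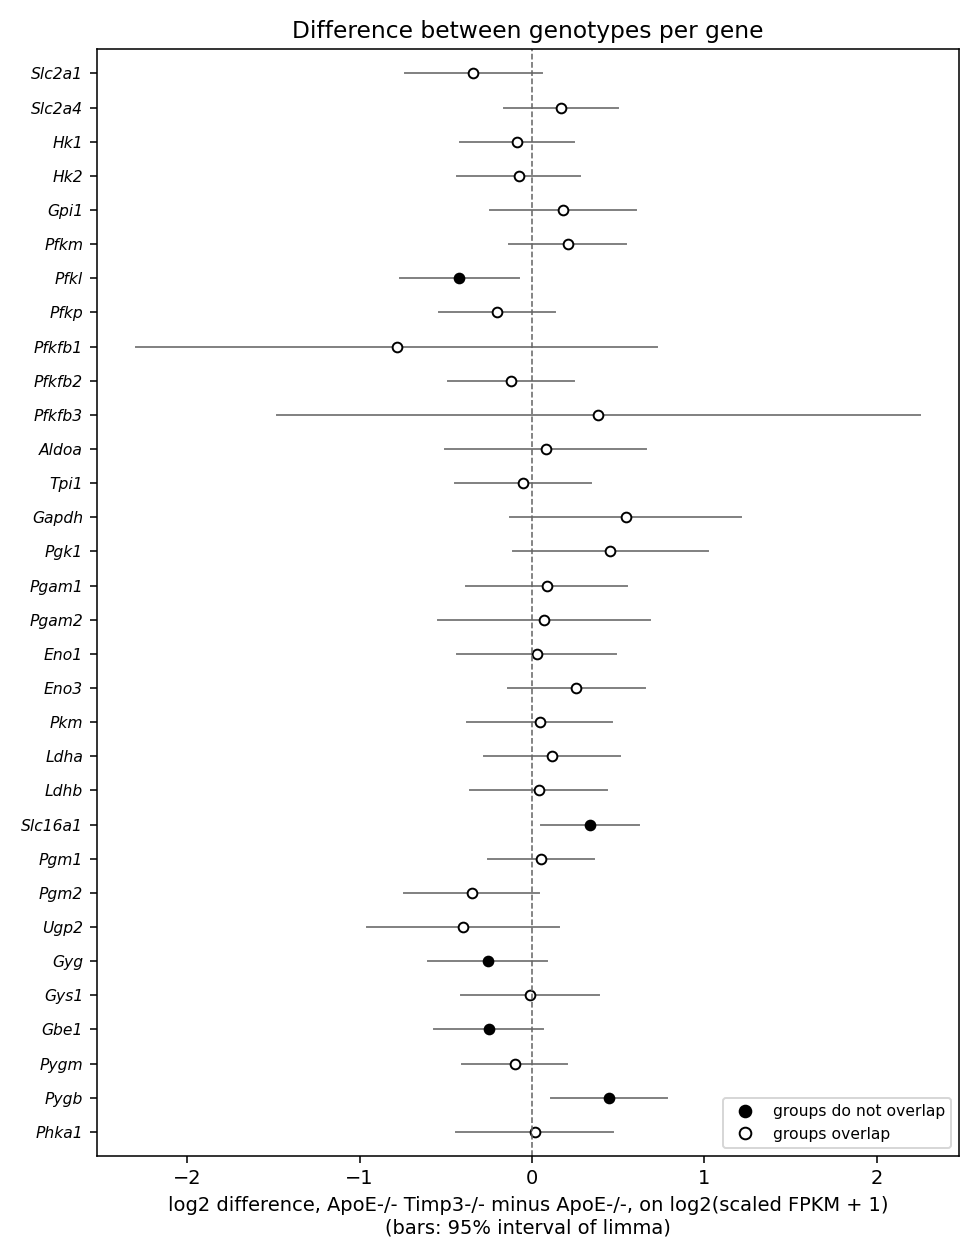
Log2 difference (ApoE-/- Timp3-/- minus ApoE-/-, on log2(scaled FPKM + 1)) of the 32 tested genes with its 95% interval from limma; filled points mark groups that did not overlap. The intervals of Pygb and Slc16a1 lie above 0 and that of Pfkl below 0, and those of Pfkfb1 and Pfkfb3 are the widest.

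The isozymes were then compared as shares, which do not depend on the scaling between libraries. The share of the muscle or heart isozyme in the summed level of its family was taken in each library for 9 families. Muscle phosphorylase made up 38.1%, 39.3% and 38.7% of phosphorylase messenger RNA in double mutants and 49.4%, 47.9% and 46.8% in ApoE-/- hearts. The means of 38.7% ± 0.591 in double mutants and 48.0% ± 1.31 in ApoE-/- hearts differed by -9.34 percentage points, several times the spread within either group. The Pygm values of libraries 2 and 3 held parts that no double mutant had. These were a second transcript at a deposited FPKM of 33.7 in library 2 and an assembled piece at 25.6 in library 3. The main Pygm transcript by itself had a log2 difference of 0.12. The summed level of both phosphorylases was 307 ± 20.1 in double mutants and 266 ± 25.6 in ApoE-/- hearts. Muscle phosphofructokinase moved the other way, with Pfkm at 87.7%, 88.8% and 87.5% of its family in double mutants and at 83.6%, 81.8% and 83.7% in ApoE-/- hearts. Here the difference was 5.01 percentage points (88.0% ± 0.659 in double mutants and 83.0% ± 1.06 in ApoE-/- hearts), and the summed level was 144 ± 19.8 and 131 ± 7.37. Assembled pieces held 28.5% of Pfkm and 22.1% of Pfkl in library 6, and 20.1% of Pfkm in library 1. In libraries 4 and 5 the Cufflinks bounds of the main Pfkm transcript began at 0, as given above. The share of Slc2a4 among the 2 transporters was 97.0%, 97.0% and 96.1% in double mutants and 95.9%, 93.5% and 95.6% in ApoE-/- hearts, higher without overlap by 1.69 points. It was 0.94 points higher without library 2, whose Slc2a1 level was the highest.

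For these 3 families the exact two-sided permutation test gave p = 0.1, the smallest that 3 against 3 libraries allow, and 0.30 after adjustment over the 9 families, so the design could not pass a threshold of 0.05. The muscle-type share was lower in the phosphorylases and higher in phosphofructokinase and the transporters, so the 3 shifts had no common direction. The difference kept its sign in every alternative run, from -5.004 to -9.95 points for Pygm and from 4.40 to 7.02 points for Pfkm. The -5.004 came from taking the strongest transcript of each gene alone, which leaves out the further Pygm parts of libraries 2 and 3. The other six shares overlapped between the groups. Heart-type Ldhb made up 70.9% ± 1.47 of lactate dehydrogenase in double mutants and 72.0% ± 2.04 in ApoE-/- hearts. Much of the Ldhb sum came from short transcripts of 685 and 867 nt. The longest Ldhb transcript, of 1304 nt, had a deposited FPKM of 40.6 to 98.2, below that of Ldha (98.4 to 148.8) in every library. Of the 50-base stretches of Ldhb 27.0% and of Ldha 16.6% recur in other genes. The effect of either on this share was not tested. Hk2 made up 51.8% ± 3.30 of the 2 hexokinases in double mutants and 51.6% ± 6.00 in ApoE-/- hearts. The Hk2 values held assembled pieces, as given above, and the Hk1 values did not. Aldoa, Pgam2 and Eno3 each held more than 95% of their family in every library of either genotype. Eno1 and Pgam1 share much sequence with other genes, and its effect on these shares was not tested. Pfkfb2 held 77.7% ± 6.79 in double mutants and 75.9% ± 20.6 in ApoE-/- hearts.

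**Figure D4:**
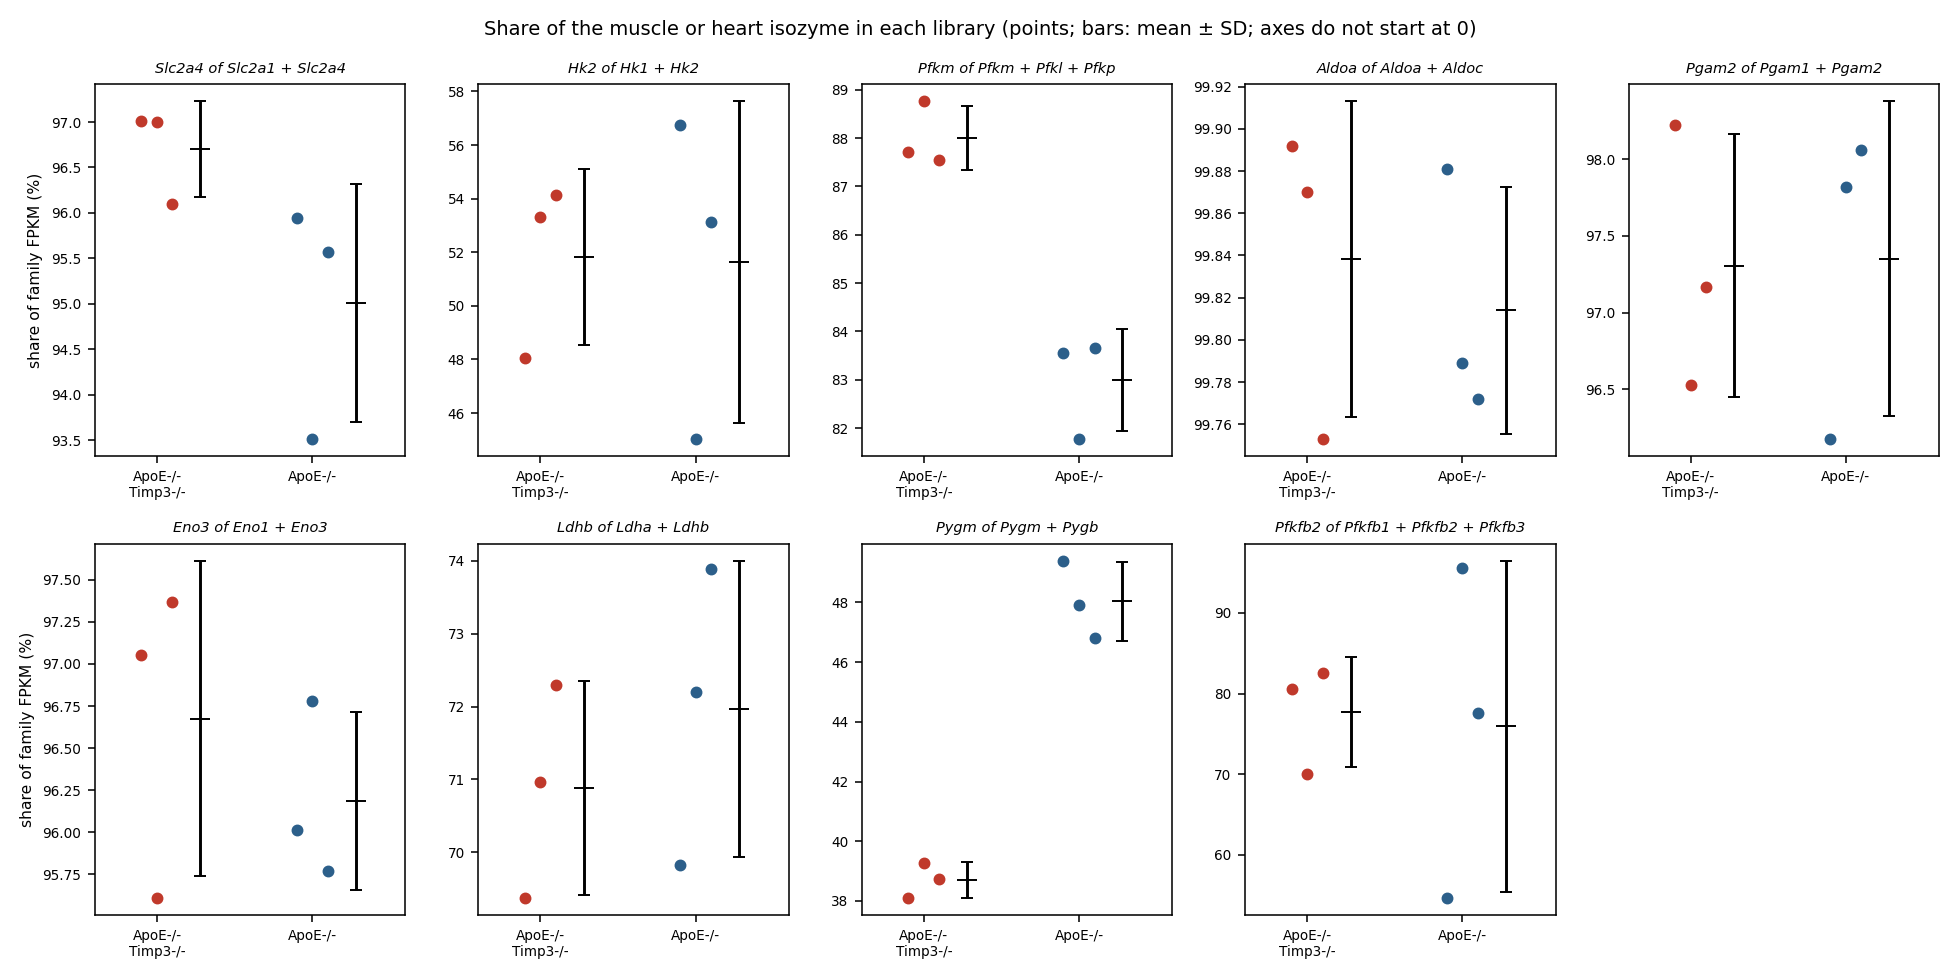
Share (%) of the muscle or heart isozyme in the summed scaled FPKM of its family in each library (points), with mean ± SD (bars, n = 3), ApoE-/- Timp3-/- on the left; the vertical axes do not start at 0. The shares of Pygm (38.7% in double mutants, 48.0% in ApoE-/- hearts), Pfkm (88.0% and 83.0%) and Slc2a4 (96.7% and 95.01%) do not overlap, and the other six do.

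Single transcripts were examined for 31 members with at least 1 transcript over the filter, 47 transcripts in all. None passed limma's test over 12707 transcripts, of which 0.134% passed, and 5 of the 47 had an unadjusted p under 0.05, against 8.33% of all transcripts. The 3 higher ones belonged to Pygb, Slc16a1 and Hk1, and the 2 lower ones to Pfkl and Ugp2. The Hk1 transcript (ENSMUST00000099691) was listed at 2.29, 2.86 and 2.68 in double mutants and at 0, 2.36 and 0 in ApoE-/- hearts. The main Hk1 transcript (ENSMUST00000072357) was lower without overlap after scaling (log2 difference -0.30, adjusted p = 0.67 by limma). Its deposited FPKM overlapped, at 9.81, 7.115 and 7.116 in double mutants and 10.93, 9.55 and 10.70 in ApoE-/- hearts. The Ugp2 transcript (ENSMUST00000102875) was listed at 20.3, 20.4 and 28.9 in double mutants and at 33.8, 48.9 and 36.2 in ApoE-/- hearts, lower without overlap (log2 difference -0.70, adjusted p = 0.53 by limma). Of the 47 transcripts 12 were listed at 0 in at least 1 library, and for 16 of the 33 genes part of the value came from assembled pieces in a library.

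A further 48 genes of the same pathways, from a list that also holds scaffold, regulatory and calmodulin genes, gave 35 tested genes, 0 past the adjusted test and a median of -0.02. There were 4 with an unadjusted p under 0.05 (11.4%, against 12.0% of all genes), 2 higher and 2 lower. Fbp2, the muscle fructose-bisphosphatase, which runs opposite to phosphofructokinase, was at 9.82, 8.85 and 8.50 in double mutants and at 5.81, 3.99 and 6.11 in ApoE-/- hearts. Ppp1r3d, a subunit that brings protein phosphatase 1 to glycogen, averaged 5.52 ± 0.273 in double mutants and 3.61 ± 0.465 in ApoE-/- hearts. Both genes were higher without overlap, with log2 differences of 0.69 and 0.50 (adjusted p = 0.25 each by limma). Ppp1r3c, another glycogen-targeting subunit, averaged 10.7 ± 1.32 in double mutants and 14.6 ± 2.29 in ApoE-/- hearts, and Gaa, the lysosomal glucosidase that degrades glycogen, 16.9 ± 5.42 and 23.9 ± 1.43. The groups overlapped in Ppp1r3c and Gaa (log2 differences -0.40 and -0.52, adjusted p = 0.38 and 0.41 by limma).

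Single libraries set much of the spread of the members. Of the 32 tested genes 14 were highest in double mutant library 4, 6 in library 5 and 0 in library 6, while 15 were lowest in ApoE-/- library 1, whose scaling factor was the largest (1.20). In the deposited FPKM 14 were again highest in library 4, but 15 were lowest in library 5 and 1 in library 1. The median deviation of the members from their own mean was 0.11, -0.02 and -0.12 in libraries 4, 5 and 6 and -0.14, 0.12 and 0.04 in libraries 1, 2 and 3, on the log2 scale. In the deposited FPKM it was 0.12, -0.17 and -0.10 in libraries 4, 5 and 6 and 0.10, 0.11 and -0.08 in libraries 1, 2 and 3. On either scale libraries of one genotype lay on both sides of 0. Library 4 was also the highest in the summed red cell markers, at 12390 scaled FPKM where the other double mutants had 472 and 1194 and the ApoE-/- hearts 114 to 477, and its part in the members' values was not tested. Without library 4 Pfkl had a log2 difference of -0.55, Pygb of 0.41 and Slc16a1 of 0.36.

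**Figure D5:**
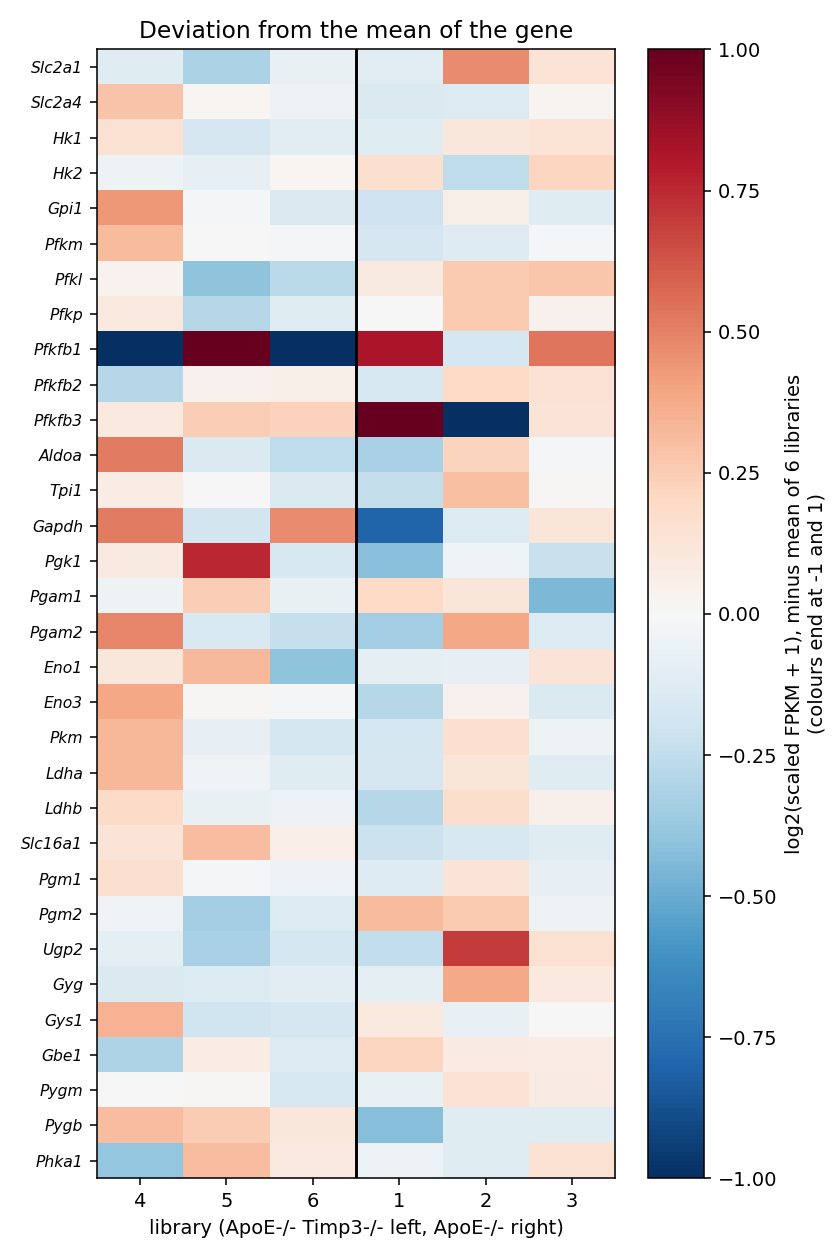
Log2(scaled FPKM + 1) of each tested gene minus its mean over the 6 libraries, ApoE-/- Timp3-/- libraries left of the line and ApoE-/- right, with red above and blue below the mean (colours end at -1 and 1). Library 4 is above the mean for most glycolytic genes and library 1, after scaling by 1.20, below it, and Pygb, Slc16a1 and Pfkl show one sign in nearly every library of a genotype.

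Markers of other cell types of the heart differed in part between the genotypes, and in bulk tissue fewer cells of a type and less RNA per cell cannot be told apart. The cardiomyocyte markers summed to 14250 to 20460 in double mutants and 11180 to 15430 in ApoE-/- hearts, with 5 of 6 above 0 and 0 of 6 at an unadjusted p under 0.05. The 4 endothelial markers were all below 0, 3 of them at an unadjusted p under 0.05, and summed to 56.2 to 69.6 in double mutants and 77.8 to 94.6 in ApoE-/- hearts without overlap. The 4 fibroblast markers were below 0 too, 2 at an unadjusted p under 0.05, with sums of 166 to 198 in double mutants and 166 to 236 in ApoE-/- hearts. The smooth muscle markers summed to 52.1 to 69.8 in double mutants and 34.1 to 50.2 in ApoE-/- hearts, with 1 of 3 tested higher at an unadjusted p under 0.05. Of these markers Acta2 alone separated the groups, at 52.9, 37.1 and 34.15 in double mutants and 29.3, 22.0 and 26.7 in ApoE-/- hearts. Myh11, Tagln and Cnn1 overlapped. Pfkl, Slc2a1 and Pygb are also expressed outside heart muscle cells, and the part of these cell types in their values was not tested. Skeletal muscle markers were near 0 beside cardiac ones, summing to 11.8 to 18.8 in double mutants and 4.73 to 13.0 in ApoE-/- hearts, with 2 of 4 tested higher at an unadjusted p under 0.05. The 4 atrial markers overlapped, at 175 to 1409 in double mutants and 123 to 1420 in ApoE-/- hearts, as did the macrophage markers at 8.09 to 9.79 and 6.17 to 16.4. Atrial content was uneven within both groups. Myl7 was at 13.3, 194 and 227 in libraries 4, 5 and 6 and at 342, 2.09 and 1.32 in libraries 1, 2 and 3. Sln and Myl4 were likewise high in libraries 1, 5 and 6 alone, while Nppa was also high in library 2. Members' median deviations were below 0 in libraries 1, 5 and 6 after scaling, but not in deposited library 1. The part of atrial tissue in the members' values was not tested. Adipocyte markers stood at 1.17 to 30.6 in double mutants and 3.95 to 138 in ApoE-/- hearts, where library 1 was the high one, and red cell markers were higher at an unadjusted p under 0.05 in 3 of 3. None of the markers matched was at 0 in every library.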

How the data were processed

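For each library the authors deposited the transcript output of Cufflinks, which lists an FPKM and a coverage per transcript, per the file headers and attributes. Per the submitters' processing notes, TopHat, Bowtie and Cufflinks were used on the build NCBIM37. Neither versions nor read length nor the use of strand could be read from the labels. FPKM had been normalized by the authors within a library, and no reads per gene are held, so neither a count test nor a counting interval was made.

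The FPKM of the reference transcripts of a gene were added up, matched by ID or by an exon overlap of 50% or more with a later annotation that served for symbols and IDs. Assembled transcripts of 300 nt or longer were added by the same overlap; they held between 34.0% and 39.6% of aligned bases, and 74.8% to 81.2% of all bases reached a gene. A second gene ID that also carries the symbol Aldoa was not used. Scaling was by the median of ratios (factors 0.895 to 1.20). Genes with a mean deposited FPKM of 1 or more and a transcript of 300 nt or longer were tested. The test was two-sided on log2(scaled FPKM + 1) in limma 3.58.1 (R 4.3.3), with the prior variance following the mean and the threshold at an adjusted p of 0.05 (Benjamini-Hochberg). Such differences are too small for low genes. The fit was tested on simulated data. Isozyme shares had an exact two-sided permutation test. Sequences were read with Python 3.11.15 and pandas 2.3.3; a stretch of 50 bases counted as shared when a transcript of a gene at another locus holds it.

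Libraries are numbered 1 to 6 in the labels, with the ApoE-/- hearts first and the double mutants last. Library order thus cannot be told apart from genotype, and no block was fitted. All members were named, as were Timp3 and the other pathway genes at an unadjusted p under 0.05; Pitrm1 was named after its values were seen. The members and lists were chosen with earlier results of these data known. Of the marker symbols Hbb-b1, Hbb-b2 and Emr1 found no match. The 17 alternatives were no further scaling, quantile normalization, pseudocounts of 0.1 and 10, a mean of 5 or more, no filter on the mean, reference transcripts only, the strongest transcript, no trend, weighted libraries, aligned bases per kilobase (chosen after seeing the data) and each library left out.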

Additional observations from a re-analysis of the deposited data

How the results depend on the processing

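Over 17 alternatives, 0 of the 32 members passed limma's adjusted test (lowest adjusted p 0.058), 17 kept their sign in every one run and 15 did not. Pygb ran from 0.23 to 0.51 (adjusted p 0.12 to 0.61), Pfkl from -0.56 to -0.25 (0.058 to 0.67) and Slc16a1 from 0.21 to 0.39 (0.12 to 0.69). Causes of the changes below were not tested. Members higher at an unadjusted p under 0.05 numbered 1 without further scaling and 1 under quantile normalization, and members lower 4 under quantile normalization and 3 with weighted libraries. With a library left out these counts ran from 1 to 3 and from 0 to 4; the lower count was 0 without library 2 or 6, 2 without library 5 and 4 without library 1, and the higher count was 1 without library 1 or 5. All genes past the adjusted test numbered 3 and 1 with pseudocounts of 0.1 and 10, 1 at a mean of at least 5, 102 with weighted libraries, and 3 to 10 with a library left out. Other pathway genes lower at an unadjusted p under 0.05 numbered 4 under quantile normalization, the strongest transcript and weighting, and 1 to 2 with a library left out; those higher numbered 1 at a mean of at least 5, 5 with weighting and 2 to 5 with a library left out. Member transcripts at an unadjusted p under 0.05 numbered 3 without further scaling and 2 to 4 with a library left out; past the adjusted test they numbered 0 to 1, the 1 being Pfkfb2 transcript ENSMUST00000171479 without library 1 (adjusted p = 0.034 by limma).

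Signs turned, on the log2 scale, without further scaling in Aldoa (-0.0080), Pgam2 (-0.017), Eno1 (-0.055), Pkm (-0.042), Ldhb (-0.049), Pgm1 (-0.033) and Phka1 (-0.055), where the median of all genes was -0.066. Under quantile normalization they turned in Aldoa (-0.059), Pgam2 (-0.086), Eno1 (-0.023), Pkm (-0.14), Ldha (-0.063), Ldhb (-0.12) and Pgm1 (-0.092). With reference transcripts only they turned in Hk2 (0.10), Aldoa (-0.20), Gapdh (-1.71), Eno1 (-0.44) and Gys1 (0.23), and with the strongest transcript in Hk2 (0.089), Aldoa (-0.21), Gapdh (-1.72), Ldhb (-0.088), Pgm1 (-0.13), Gys1 (0.21) and Pygm (0.12). With weighting they turned in Aldoa (-0.092), Pgam2 (-0.019), Eno1 (-0.065), Pkm (-0.039) and Ldhb (-0.060), with aligned bases in Eno1 (-0.19), Gys1 (0.10) and Phka1 (-0.023), and with a pseudocount of 10 in Pfkfb3 (-0.024). With a library left out the ranges that crossed 0 were -0.16 to 0.23 for Aldoa, -0.13 to 0.24 for Eno1, -0.19 to 0.081 for Gys1, -0.22 to 0.010 for Hk2, -0.023 to 0.21 for Ldha, -0.096 to 0.14 for Ldhb, -0.60 to 1.19 for Pfkfb3, -0.12 to 0.20 for Pgam1, -0.16 to 0.28 for Pgam2, -0.014 to 0.13 for Pgm1, -0.14 to 0.21 for Phka1, -0.11 to 0.15 for Pkm and -0.19 to 0.087 for Tpi1. Of the shares, that of Pfkfb2 turned to -3.82 points (reference only), -10.6 (strongest) and -2.23 (aligned bases), Aldoa to -0.055 (strongest) and -0.013 (aligned bases) and Eno3 to -0.70 (strongest). With a library left out the share ranges were -0.0025 to 0.067 for Aldoa, -3.11 to 2.75 for Hk2, -8.90 to 11.6 for Pfkfb2 and -0.63 to 0.34 for Pgam2. No paired analysis was possible because the groups share no replicate number.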
